A study of Homo sapiens with 2 samples.

Results

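Very wide LDB1 peaks were the regions of at least 3000 bp in a list of LDB1 sites from NB4 cells. They numbered 406 of the 52765 peaks on chromosomes 1 to 22 and X, or 0.769%, and held 1.69 of the 37.5 Mb under all peaks, or 4.51%. NB4 is a human line of acute promyelocytic leukaemia, a disease in which the PML::RARA fusion protein stops granulocyte maturation. The cells were untreated, and sites were mapped by CUT&Tag, in which an antibody brings a Tn5 transposase to chromatin and nearby DNA is cut and given adapters. The series held 2 libraries, 1 with an antibody against LDB1 and 1 with IgG, and only the LDB1 peak list was used here. With 1 library there was no replicate, no test between samples and no p-value. Exact (Clopper-Pearson) 95% binomial intervals follow the shares and cover counting error within this list only. Read depth and peak height were unknown, so width is the only size given. The members were chosen by their deposited width, so widths are given only as a description. All coordinates are hg38, counted from 1.

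LDB1 is a nuclear adaptor without a DNA-binding domain of its own. It dimerises and joins LMO proteins, GATA factors and basic helix-loop-helix factors such as TAL1, LYL1 and the E2A proteins into complexes that bring enhancers and promoters together. GATA factors bind the letters GATA, and the helix-loop-helix partners bind E-boxes, CANNTG. A wide peak marks a stretch over which cut fragments were frequent, and broad stretches of this kind are often found at clustered enhancers and at genes of cell identity.

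The sequences below are promoters that lie wholly under a wide peak, shown because they are the parts of these regions whose letters were at hand. They come from RefSeq (GRCh38.p14), run 5′ to 3′ over the 250 bases before the listed start, and carry GATA (or TATC, its reverse complement) and CANNTG in capitals. The set holds the promoter under the widest peak of all (COL18A1), that of TMC6 in a gene pair spanned by a wide peak, that of a platelet gene (GP1BB), and those of 4 blood transcription factors (LYL1, RUNX1, MYB and CEBPE).
COL18A1: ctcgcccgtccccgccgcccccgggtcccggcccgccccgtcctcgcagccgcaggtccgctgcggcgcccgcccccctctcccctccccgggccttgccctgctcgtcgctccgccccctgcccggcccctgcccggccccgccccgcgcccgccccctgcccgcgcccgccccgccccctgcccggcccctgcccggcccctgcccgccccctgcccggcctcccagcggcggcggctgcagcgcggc
TMC6: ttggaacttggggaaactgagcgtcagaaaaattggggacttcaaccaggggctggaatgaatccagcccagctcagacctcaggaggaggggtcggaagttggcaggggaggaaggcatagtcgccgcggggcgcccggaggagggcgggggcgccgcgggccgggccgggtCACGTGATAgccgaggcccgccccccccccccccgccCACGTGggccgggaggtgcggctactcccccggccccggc
GP1BB: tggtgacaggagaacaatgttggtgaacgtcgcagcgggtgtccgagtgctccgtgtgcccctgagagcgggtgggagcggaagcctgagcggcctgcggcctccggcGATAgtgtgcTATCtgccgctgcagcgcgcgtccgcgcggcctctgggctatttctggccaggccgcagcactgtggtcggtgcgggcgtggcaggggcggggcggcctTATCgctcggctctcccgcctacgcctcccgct
LYL1: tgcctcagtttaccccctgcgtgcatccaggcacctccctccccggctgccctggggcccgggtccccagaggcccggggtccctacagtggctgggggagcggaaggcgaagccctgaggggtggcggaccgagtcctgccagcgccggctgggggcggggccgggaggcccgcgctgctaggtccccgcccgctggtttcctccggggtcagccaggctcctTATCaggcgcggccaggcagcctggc
RUNX1: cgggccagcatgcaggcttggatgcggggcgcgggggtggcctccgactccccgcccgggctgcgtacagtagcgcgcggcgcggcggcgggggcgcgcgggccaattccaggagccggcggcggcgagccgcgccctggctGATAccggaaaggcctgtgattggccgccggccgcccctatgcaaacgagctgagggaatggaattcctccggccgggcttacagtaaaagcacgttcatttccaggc
MYB: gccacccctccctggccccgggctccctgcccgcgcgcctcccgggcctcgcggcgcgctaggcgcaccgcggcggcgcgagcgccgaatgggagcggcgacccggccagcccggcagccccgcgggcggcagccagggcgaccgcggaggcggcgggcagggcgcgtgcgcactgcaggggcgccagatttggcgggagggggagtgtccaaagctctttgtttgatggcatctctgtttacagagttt
CEBPE: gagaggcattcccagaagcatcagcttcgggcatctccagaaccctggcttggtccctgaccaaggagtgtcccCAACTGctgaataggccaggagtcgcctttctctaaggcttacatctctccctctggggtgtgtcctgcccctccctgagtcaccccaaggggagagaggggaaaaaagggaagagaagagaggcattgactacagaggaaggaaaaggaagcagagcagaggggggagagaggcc
These stretches lie at chr21:45404915-45405164 (plus strand), chr17:78128756-78129005 (minus), chr22:19723289-19723538 (plus), chr19:13102859-13103108 (minus), chr21:34888700-34888949 (minus), chr6:135181058-135181307 (plus) and chr14:23119256-23119505 (minus), in the order shown. The GP1BB promoter held 3 matches to GATA, and TMC6, LYL1 and RUNX1 held 1 each. TMC6 held 2 matches to CANNTG, 1 of them overlapping its GATA match by a base, and CEBPE held 1. The COL18A1 and MYB promoters held neither, and that of COL18A1 was 88.4% G and C.

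In all, 87 of the 22131 listed promoters of protein-coding genes (300 bases each, from 250 before to 50 after the start) lay wholly under a wide peak, or 0.393%. They belonged to 70 genes. Motif shares were taken over the first listed promoter of each gene, which lay under a wide peak for 59 genes and under a narrower peak for 1855. GATA on either strand was present in 28.8% of the promoters under wide peaks, 26.9% of those under narrower peaks and 39.7% of all 15811. CANNTG was present in 55.9%, 51.2% and 57.8% of the same sets. The AP-1 letters TGACTCA on either strand were present in 3 of 59, against 2.05% under narrower peaks and 3.18% of all, and the ETS core GGAA on either strand in 84.7%, against 90.6% and 92.4%. The median share of G and C was 69.2% under wide peaks, 69.6% under narrower peaks and 62.4% over all promoters. No motif set the promoters under wide peaks apart from those under narrower ones by more than a few promoters. Promoters of chromosome 8 were not used here.

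Wide peaks measured 3004 to 14368 bp. The middle of them lay at 3728 bp, with quartiles at 3324 and 4520 bp, against 547 bp with quartiles at 407 and 806 bp for the 52359 narrower peaks. Most stood close to the limit, with 247 under 4000 bp. There were 67 of at least 5000 bp, 9 of at least 8000 bp and 3 of at least 10000 bp. The members just inside the limit measured 3004 bp in NIBAN2, 3005 bp at CEBPE, 3006 bp in ATP11A, 3009 bp at a site outside genes on chromosome 1 and 3014 bp in TNRC18. The peaks just outside it measured 2994 bp in PISD, 2994 bp on chromosome 21, 2992 bp on chromosome 5, 2989 bp on chromosome 2 and 2988 bp in CACNA1A. The limit therefore cut a continuous range.

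Wide peaks lay near chromosome ends more often than narrower ones. Of the 406, 159 lay within 5 Mb of a chromosome end, 39.2% (34.4 to 44.1%), against 21.1% (20.7 to 21.4%) of narrower peaks and 21.2% of all peaks. The share rose with width, being 19.2% (18.7 to 19.8%) at 323 to 499 bp, 21.6% at 500 to 999 bp, 24.2% at 1000 to 1999 bp, 28.7% (25.9 to 31.5%) at 2000 to 2999 bp, 35.99% (30.87 to 41.35%) at 3000 to 4999 bp and 55.2% (42.6 to 67.4%) at 5000 bp or more. Chromosome 7 gave 60 of the 159. Without it the share was 32.1% (27.0 to 37.7%) of 308 wide peaks, against 20.4% of narrower peaks. The wide peaks near ends were also the wider ones, with a median of 4005 bp (quartiles 3465 and 4881 bp), against 3616 bp (3238 and 4300 bp) in the 247 that lay elsewhere.

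**Figure D1:**
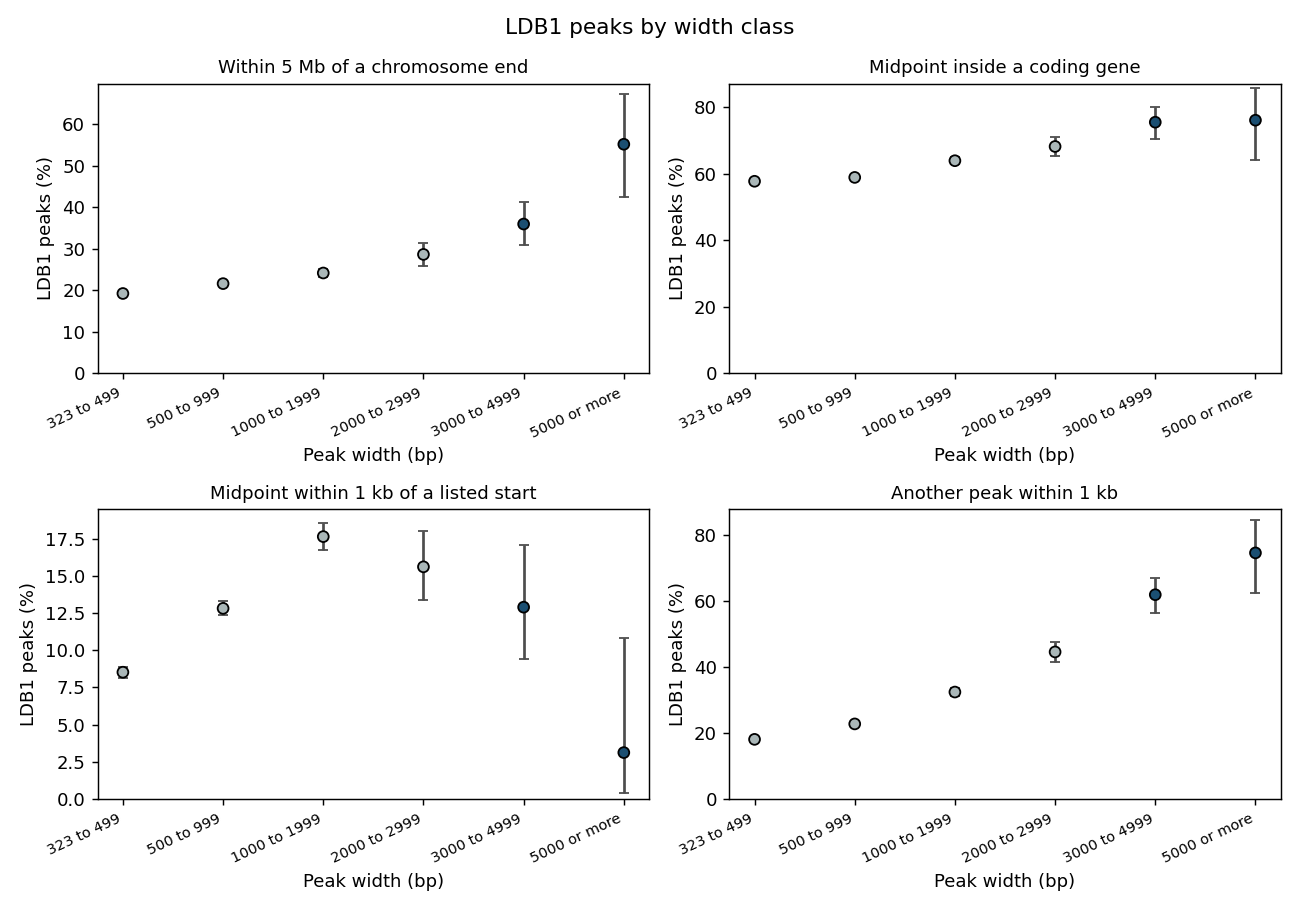
Share of LDB1 peaks (%) in 6 classes of peak width (bp), for 4 measures of position; points are shares, bars are exact 95% binomial intervals, and dark points are the classes of 3 kb or more. The share near chromosome ends and the share with another peak within 1 kb rise through all 6 classes, while the share with a midpoint near a gene start is highest at 1000 to 1999 bp (17.6%) and 3.12% at 5000 bp or more.

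The chromosome ends were unequal. The first 5 Mb of chromosome 7 held 60 wide peaks among 961 peaks, 6.24% (4.80 to 7.96%), and the last 5 Mb of chromosome 16 held 23 among 509, 4.52% (2.89 to 6.70%). The first 5 Mb of chromosome 19 followed with 16 of 692, the last of chromosome 8 with 15 of 725 and the last of chromosome 21 with 7 of 494. Other ends held many peaks and few wide ones: the last 5 Mb of chromosome 17 held 2 among 584, 0.342% (0.0415 to 1.23%), and the ends of chromosome 2 held none among 460. Ends with many peaks thus did not always hold wide ones.

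Over whole chromosomes, 98 wide peaks lay on chromosome 7, 2.26% (1.84 to 2.74%) of its peaks, and 75 of those in its first 7 Mb. Chromosomes 19, 1, 22 and 16 followed with 40, 36, 30 and 29. On chromosome 22 all but 1 of the 30 lay over 5 Mb from an end, and the share wide was 1.79% (1.21 to 2.54%). Chromosomes 7, 16, 19 and 22 together held 197 wide peaks, 48.5%, against 21.9% of narrower peaks. Chromosome 18 held none among 745 peaks, which allows a share of up to 0.403% by a limit of 3 counts, and 0.494% by the upper end of the exact interval. Copy number was not measured here, so more copies of a chromosome and more signal per copy cannot be told apart.

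**Figure D2:**
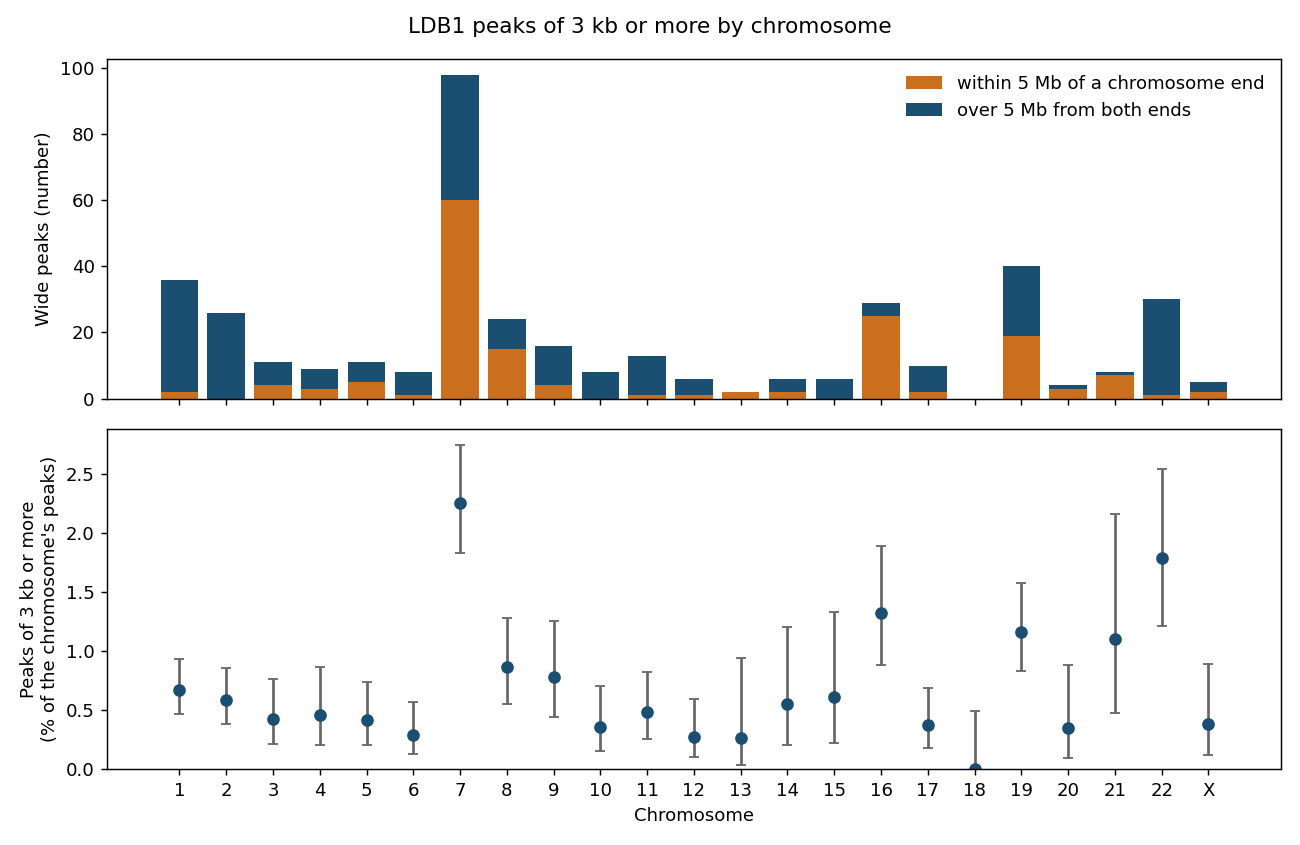
Wide peaks by chromosome: above, their number, split into those within 5 Mb of a chromosome end and those elsewhere; below, their share (%) of the chromosome's peaks with exact 95% binomial intervals. Chromosome 7 stands highest in both, at 98 peaks and 2.26%, and chromosome 18 has none.

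Most wide peaks sat inside genes. The midpoint lay in a protein-coding gene for 307 of 406, 75.6% (71.1 to 79.7%), against 59.3% (58.9 to 59.7%) of narrower peaks and 59.4% of all peaks. The whole peak lay inside a gene without reaching an end of any in 229 cases. A gene end was crossed by 103, 25.4% (21.2 to 29.9%), of which 13 held a whole gene, against 7.79% of all peaks, though a wide peak reaches more ends by its length alone. No protein-coding gene was touched by 74, 18.2% (14.6 to 22.3%), against 38.2% of all peaks. Near chromosome ends 16.4% (10.97 to 23.03%) crossed a gene end and 67.3% (59.4 to 74.5%) lay inside a gene, against 31.2% (25.45 to 37.4%) and 49.4% (43.0 to 55.8%) elsewhere. Narrower peaks also crossed gene ends less often near chromosome ends, at 4.26% (3.89 to 4.65%) against 8.56% (8.29 to 8.83%) elsewhere. The lower share near ends was thus not particular to wide peaks.

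Few of the widest peaks had the midpoint within 1 kb of a gene start. Listed starts of protein-coding genes were held by 68 of the 382 wide peaks off chromosome 8, 17.8% (14.1 to 22.01%), against 7.40% of narrower peaks and 7.48% of all peaks. Length alone adds to that count, so the midpoint was used as well. It lay within 1 kb of a listed start in 11.3% (8.27 to 14.9%) of wide peaks, against 11.7% (11.39 to 11.96%) of narrower peaks and 11.7% of all peaks. The share was 17.6% (16.7 to 18.5%) at 1000 to 1999 bp, 15.6% at 2000 to 2999 bp, 12.9% (9.41 to 17.1%) at 3000 to 4999 bp and 3.12% (0.381 to 10.8%) at 5000 bp or more, 2 of 64 peaks. Within 5 kb of a listed start the shares were 25.9% (21.6 to 30.6%) of wide and 20.7% (20.4 to 21.1%) of narrower peaks, with 20.8% of all. At 5000 bp or more the share within 5 kb was 20.3% (11.3 to 32.2%). In that class 12 of 64 peaks, 18.75% (10.1 to 30.5%), held a listed start.

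Wide peaks crossed the 3′ ends of genes as well as the 5′ ends. The strand was known for 15811 of 19970 protein-coding genes, or 79.2%, and for 208 of the 276 genes touched by a wide peak. Of the 100 crossed ends with a known strand, 60 were 5′ ends, 60.0% (49.7 to 69.7%). For narrower peaks the count was 3033 of 3429 (88.45%, 87.3 to 89.5%). A further 36 ends of wide and 886 of narrower peaks had no strand. A longer peak reaches more ends of either kind, and a gene held whole adds both of its ends. The part of length in this contrast was not tested. Inside genes a smaller share of wide than of narrower peaks lay in the 5′-most part. Among 172 wide peaks wholly inside a single stranded gene (119 genes), 14.5% (9.63 to 20.7%) had the midpoint in the 5′-most of 4 equal parts of the gene and 35.5% (28.3 to 43.1%) in the 3′-most. For 21349 narrower peaks the shares were 25.4% (24.8 to 26.0%) and 29.2% (28.6 to 29.8%). The interval of the 3′-most share of wide peaks thus included the share of narrower peaks. Without the wide peaks in MAD1L1 the wide shares were 15.8% and 34.9%. A wide peak near a 5′ end crosses it more easily and so leaves this count, which lowers the 5′-most share. The same holds at the 3′ end.

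**Figure D3:**
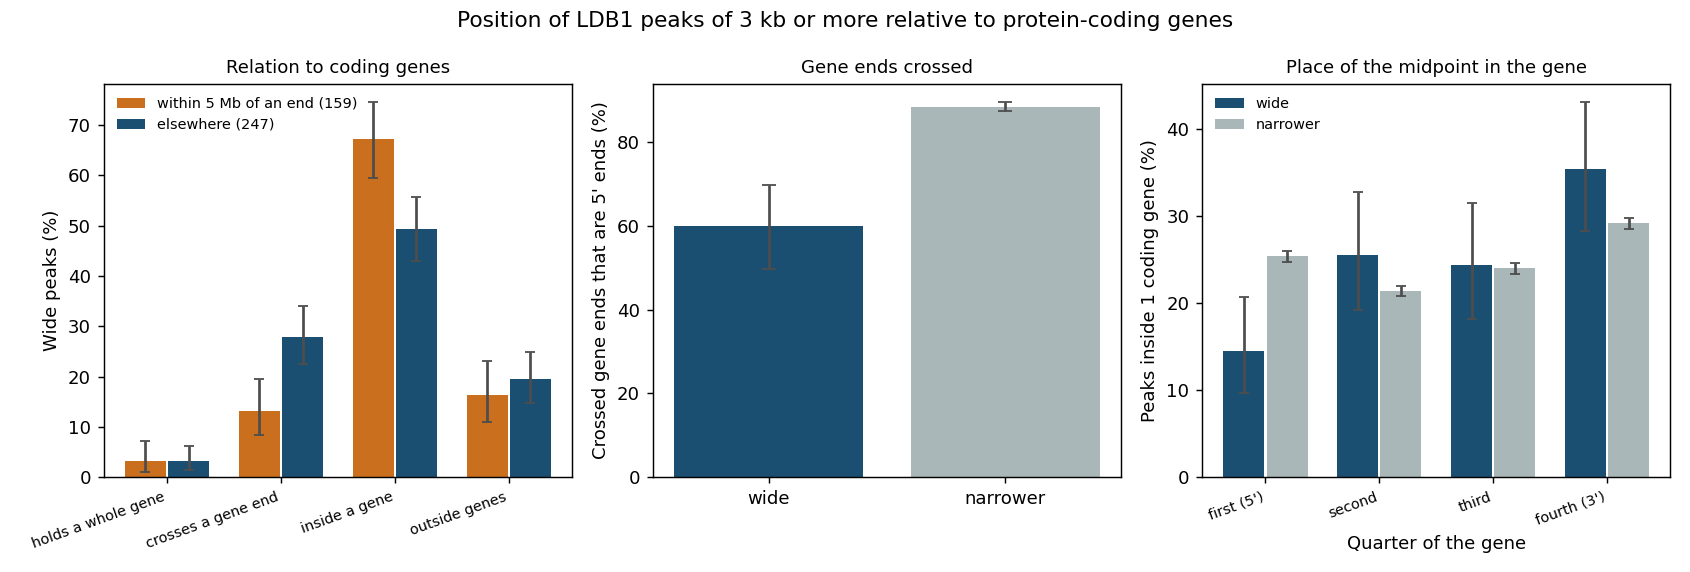
Left, wide peaks (%) that hold a whole protein-coding gene, cross a gene end, lie inside a gene or lie outside genes, near chromosome ends and elsewhere; middle, share (%) of crossed gene ends that are 5′ ends; right, which of 4 equal parts of the gene holds the midpoint, for peaks inside 1 gene. Bars on the columns are exact 95% binomial intervals. Of crossed ends with a known strand, 60.0% are 5′ ends for wide peaks and 88.45% for narrower peaks, with peak length not accounted for.

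Among the 276 protein-coding genes touched by a wide peak, 1.38% of all, 235 had 1, 25 had 2 and 16 had 3 or more; 2 or more were found in 0.205% of all genes. Their median length was 25.7 kb, against 34.0 kb for the 11504 genes touched by any peak and 24.2 kb for all. MAD1L1, which encodes a spindle checkpoint protein, led with 21 wide peaks among 135. Those covered 92.2 kb, or 22.1%, of the 417 kb gene on chromosome 7. GSE1, the gene of a coiled-coil protein of corepressor complexes, had 8 among 149 over 507 kb of chromosome 16, covering 6.83% of it. CHLSN had 6, with 14.8% of the gene under them. ZFPM1 had 4, as did PRKAR1B, the gene of a regulatory subunit of protein kinase A.

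The share of a gene under wide peaks did not follow their number. ASIC4, an ion channel gene of 31.7 kb, and INTS1, which encodes a subunit of the Integrator complex that processes nascent RNA, had 3 wide peaks each, which covered 43.2 and 41.4% of the gene. ZFPM1 was covered to 31.9% and ARID3A, the gene of the B cell and progenitor factor Bright, to 31.6%. USP20, a deubiquitinase gene, reached 29.2%, while IQSEC1 and ZMIZ1 with 3 wide peaks each were covered to 2.82 and 5.14%. CBFA2T3, RADIL, TXNRD2 and TNRC18 also had 3 each.

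LDB1 complex genes were among the carriers of wide peaks. Of 25 genes on that list, 4 (16%) were touched, where 1.38% of all protein-coding genes were. Peaks of any width touched 18 of the 25, beside 57.6% of all genes. This list and those below were chosen with earlier results of these data known. ZFPM1 encodes FOG1, the cofactor of GATA factors. Its 4 wide peaks measured 12089, 7590, 4161 and 3338 bp, all inside the gene, and the narrowest of these lay nearest the listed start, with its midpoint 1.99 kb away. That of the 12089 bp peak, chr16:88488893-88500981, lay 41.7 kb from it. CBFA2T3 encodes ETO2, a corepressor found in LDB1 complexes. Its wide peaks gathered around the 5′ end of the gene: 4015 and 3852 bp inside it, 8234 bp across that end, and 6041, 8884 and 3460 bp beyond it at 3.89, 11.5 and 26.0 kb from the gene. The listed start of CBFA2T3 lies within the gene, 34.2 kb from the midpoint of the peak across its end.

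LYL1, a helix-loop-helix partner of LDB1 in blood progenitors, had a single wide peak of 5476 bp (chr19:13100233-13105708). Its midpoint lay 0.112 kb from the listed LYL1 start, so the promoter shown above sits near its centre, and it also crossed the 3′ end of TRMT1, a transfer RNA methyltransferase gene. TCF3, which encodes the E2A factors, had 1 wide peak of 4580 bp inside the gene, 20.2 kb from the listed start. The 4 genes thus showed different layouts, with the peak centred on the start in LYL1, across the gene's 5′ end and beyond in CBFA2T3, and inside the gene in ZFPM1 and TCF3. ZFPM1, CBFA2T3 and TCF3 lie within 5 Mb of a chromosome end, and LYL1 does not.

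**Figure D4:**
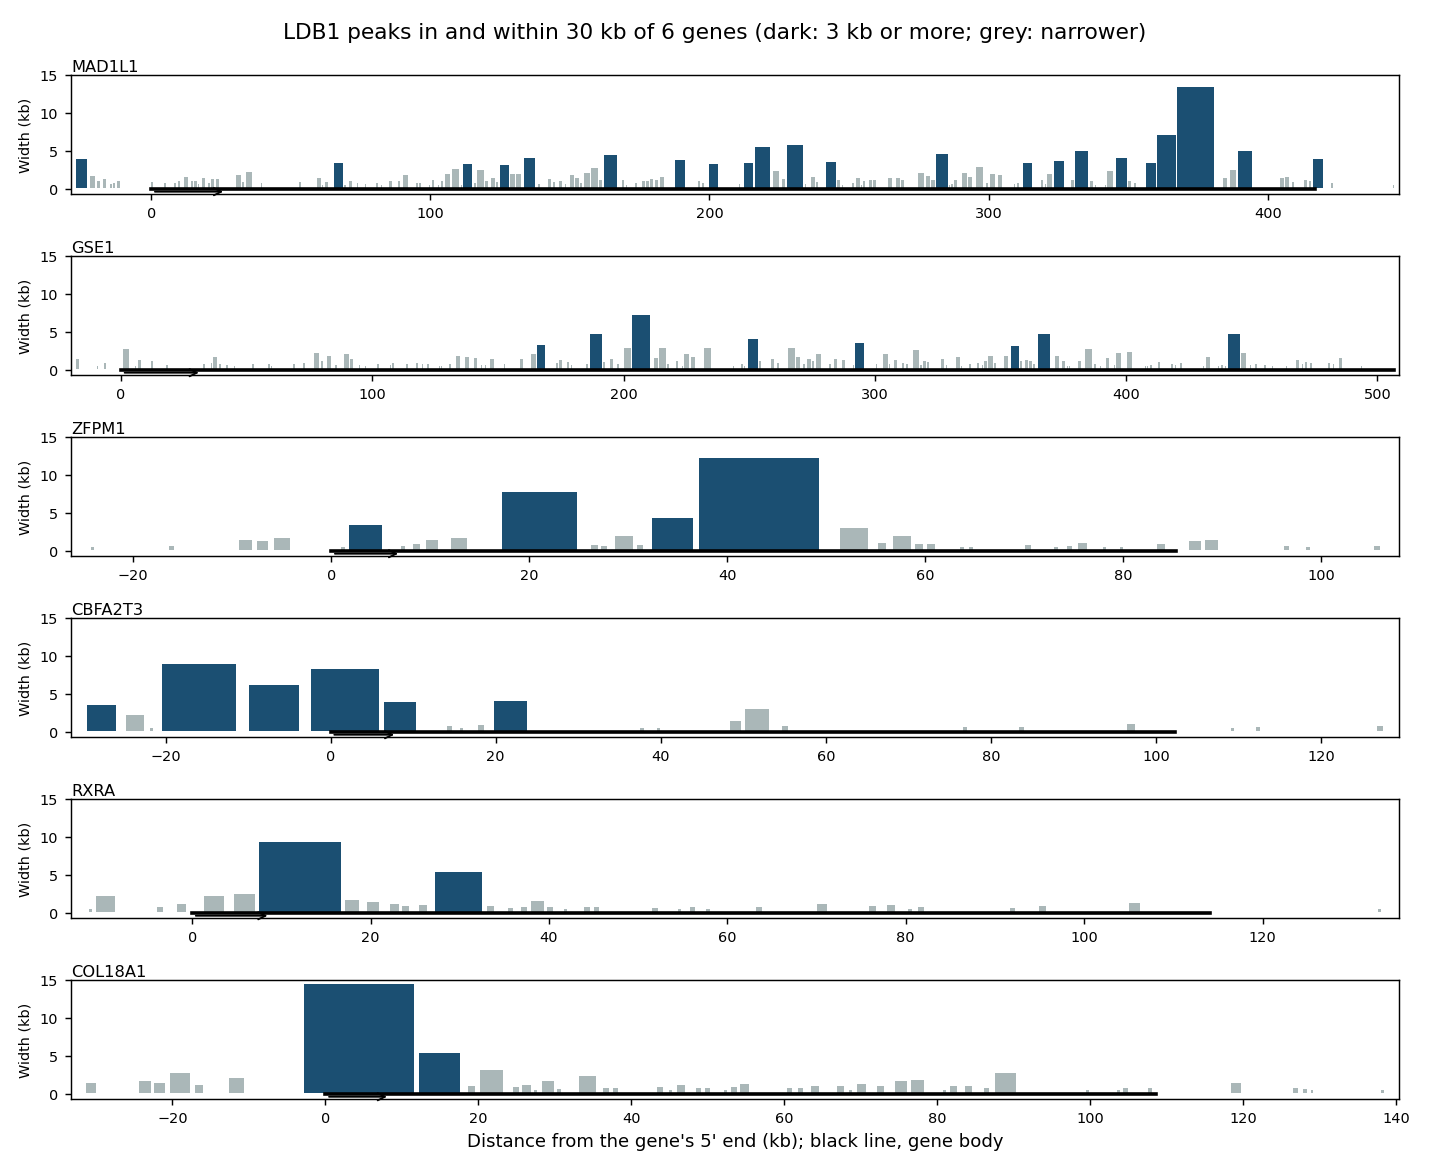
LDB1 peaks in and within 30 kb of MAD1L1, GSE1, ZFPM1, CBFA2T3, RXRA and COL18A1; the x axis is the distance (kb) from the gene's 5′ end, the height of each box is the peak width (kb), and the black line is the gene body. Wide peaks (dark) are spread along MAD1L1 except its 5′-most part, sit in the 5′ part of RXRA, lie across the 5′ end of COL18A1 and extend outward from the 5′ end of CBFA2T3.

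Blood transcription factor genes were touched in 5 of 60 cases (8.33%), and 6 (10%) had a wide peak in the gene or within 10 kb, against 2.02% of all genes. Peaks of any width touched 50 of the 60, beside 57.6% of all genes. SPI1, the gene of PU.1, had a peak of 3769 bp across an end (chr11:47375286-47379054). MYB, a factor of progenitor growth, had 3295 bp across its 5′ end with the midpoint 0.861 kb from the start. RUNX1 had 3118 bp over a listed start inside the gene, 0.981 kb from the midpoint. CEBPE, needed for late granulocyte maturation, lay whole inside a peak of 3005 bp. EGR3 had 3129 bp inside the gene. The peak counted for GFI1B, a repressor gene of red cell and platelet lineages, lay 9.17 kb outside it and measured 3078 bp. None of these 6 peaks reached 4000 bp, and all lie over 5 Mb from a chromosome end. MYB and RUNX1 each had 1 other peak within 50 kb, where the median for wide peaks was 20.

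Retinoid genes were touched in 2 of 25 cases (8%), beside 1.38% of all genes, and by peaks of any width in 19 of 25. RXRA, the partner receptor of RARA, had wide peaks of 9181 bp (chr9:134333947-134343127) and 5234 bp in its 5′ part, with midpoints 12.1 and 22.99 kb from the listed start. CYP26B1, which encodes an enzyme that breaks down retinoic acid, had 3340 bp inside the gene. The remaining lists held few or none. Of the granule and oxidase genes none of 25 had a wide peak in or within 10 kb, and of the chromatin regulators and corepressors none of 25, although peaks of any width touched 11 and 19 of them, beside 57.6% of all genes. With 2.02% of all genes within 10 kb of a wide peak, a count of 0 in lists of this size is near the background. Of the surface protein list none of 25 was touched and 1 (4%), CD7, lay within 10 kb of a peak of 4629 bp inside SECTM1. Of the glycolysis list 1 of 20 (5%) was touched, beside 1.38% of all genes. This was SLC2A1, the glucose transporter gene, with 3730 bp across its 5′ end, 0.252 kb from the listed start. Peaks of any width touched 19 and 14 genes of these lists. The glycolysis share rests on 1 gene and the retinoid share on 2, so these lists are not set apart. The neuron and hepatocyte lists had none of 20 each, with 15 and 8 touched by peaks of any width.

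Away from chromosome ends, the widest peak was 8936 bp across the 3′ end of GUK1, the guanylate kinase gene. It was followed by 8394 bp on a long non-coding RNA gene, LINC02255, 15.6 kb from SEMA7A, which encodes a semaphorin of blood and nerve cells (chr15:74385299-74393692). A peak of 7985 bp spanned the 5′ end of TMC6 and an end of TMC8, genes of a membrane complex linked to papillomavirus susceptibility (chr17:78127390-78135374). LOC124905153 had 7694 bp across its 3′ end. Of these 4 peaks, 3 crossed a gene end.

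The next widest included the following. DMTN, which encodes the red cell membrane skeleton protein dematin, had 7327 bp inside the gene. AQP1, the water channel gene of red cells and kidney, had 6007 bp across its 5′ end (chr7:30911159-30917165), with the midpoint 2.31 kb from the start, and a total of 62.8% of the gene lay under wide peaks. GP1BB, the gene of a platelet receptor subunit, had 5839 bp that held its start and also crossed an end of SEPTIN5 (chr22:19718864-19724702). NFIX, a nuclear factor I gene, had 6851 bp inside the gene, 31.6 kb from the nearest listed start, that of LYL1. BIN1, a membrane curvature gene, had 5845 bp inside, and MYO1G, a myosin gene of blood cells, had 5115 bp across its 5′ end.

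Others of the widest 30 away from chromosome ends were these. GMPPA, an enzyme gene of sugar nucleotide metabolism, and ASIC4 shared 7279 bp across the 3′ end of GMPPA. DEGS2 of sphingolipid synthesis had 6669 bp, the ciliary gene NPHP4 6639 bp and the actin bundling gene ESPN 6509 bp, all inside the gene. A peak of 6556 bp crossed an end of ACTB, the beta-actin gene, and 5366 bp crossed an end of FSCN1, the fascin gene, nearby on chromosome 7. ZNF316 had 6089 bp, MGAT3 5764 bp, USP20 5494 bp, ZMIZ1 5419 bp, VAC14 5413 bp and LZTR1 5396 bp inside the gene, and NACAD had 5869 bp across its 3′ end. The narrowest of these 30 measured 5029 bp, inside WDR86.

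Within 5 Mb of chromosome ends, the widest peak of all was 14368 bp across the 5′ end of COL18A1, a collagen gene (chr21:45402357-45416724), with its midpoint 4.38 kb from the listed start. A second wide peak of 5245 bp lay 731 bp further on. MAD1L1 had 13369 bp (chr7:1852063-1865431) and, 332 bp away, 6927 bp. INTS1 had 9153 bp and GSE1 7073 bp, both inside the gene, and that of GSE1 lay at 4.96 Mb, next to the limit of 5 Mb. ADAP1 had 6498 bp inside, BSG, the basigin gene, had 6325 bp that held its start, and ARID3A had 6260 and 5519 bp inside the gene. EGFL7, an endothelial and progenitor gene, had 5841 bp over its listed start, 0.616 kb from the midpoint. SECTM1, the gene of a secreted and membrane protein of myeloid cells, had 6130 bp across its 5′ end, and 79.5% of the gene lay under 2 wide peaks. Peaks of 5862, 5849 and 5825 bp lay outside genes, nearest to ZDHHC19, DAPK3 and COL18A1.

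Wide peaks held 13 protein-coding genes whole, each in a different peak. The widest of these 13 peaks measured 5283 bp and held PPP1R15A, which encodes the GADD34 phosphatase subunit of the stress response (chr19:48871708-48876990), with its midpoint 1.93 kb from the start. GRIFIN followed at 5263 bp and UBE2M, a NEDD8 conjugating enzyme gene, at 5152 bp in a peak that also crossed the 5′ end of CHMP2A. SMIM1, which carries the Vel blood group antigen, lay in 4786 bp, RPP25, of ribonuclease P, in 4390 bp, and TCAP in 3907 bp. The other genes held whole were LOC124902050, NHLRC4, C1QL2, SPEGNB, MYL7, CLDN5 and CEBPE, in peaks of 3005 to 4709 bp. The 13 peaks were 3.20% (1.72 to 5.41%) of the 406. The same share over narrower peaks is not given here, so these genes are a description only.

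The ends of 2 or more genes were crossed by 18 wide peaks, and of 3 genes by 2. Where the strand of both genes was known, the genes lay head to head in EPHB4 and SLC12A9 (3887 bp) and in BLVRB and SPTBN4 (3666 bp). They met tail to tail in STK11 and CBARP (3088 bp). Head-to-tail pairs were CHMP2A and UBE2M (5152 bp), SLC11A1 and CTDSP1 (4480 bp), SPEGNB and GMPPA (3498 bp), LYL1 and TRMT1, ABCB6 and ATG9A (3019 bp), and the triplet of PRR35, NHLRC4 and PIGQ (4683 bp). SLC11A1 encodes the NRAMP1 metal transporter of phagocytes, BLVRB a biliverdin reductase of red cells and ABCB6 a porphyrin transporter. Pairs of both orientations were thus present. Neither the orientations nor the number of peaks that cross 2 or more genes was counted over all peaks. These pairs are therefore a description only.

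Wide peaks stood in crowded neighbourhoods. The median number of other peaks with a midpoint within 50 kb was 20 (quartiles 12 and 27) for wide peaks and 6 (2 and 12) for narrower peaks. Near chromosome ends the medians were 26 and 11, elsewhere 15 and 4, and without chromosome 7 they were 17 and 5. Another peak lay within 1 kb of 260 wide peaks, 64.0% (59.2 to 68.7%), against 22.5% (22.2 to 22.9%) of narrower peaks and 22.8% of all peaks. The smallest gap between neighbouring peaks was 324 bp, both over the list and beside a wide peak, so neighbouring peaks closer than that were not listed apart. The part of peak crowding in width was not tested.

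**Figure D5:**
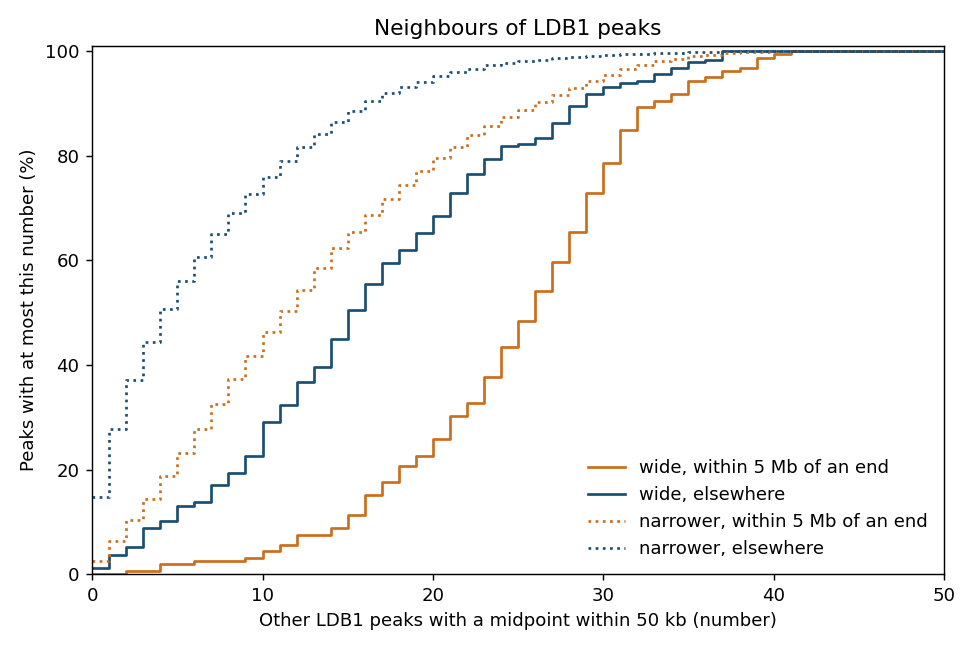
Cumulative share (%) of LDB1 peaks by the number of other peaks with a midpoint within 50 kb, for wide peaks (solid) and narrower peaks (dotted), near chromosome ends (orange) and elsewhere (blue). Both solid lines lie right of the dotted lines of the same colour, with medians of 26 against 11 near ends and 15 against 4 elsewhere.

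Joined with every peak at gaps of at most 1 kb, the 406 wide peaks formed 380 stretches. Of these, 146 were a single peak, 234 held more peaks and 25 held 2 or more wide ones. The longest, named after their values were seen, was 36160 bp at FIBCD1 and QRFP on chromosome 9, of which 18 peaks covered 69.6%. The next ran 27095 bp at RSPH14 and GNAZ on chromosome 22, 74.2% under 12 peaks, and 24991 bp at TXNRD2, 78.96% under 9. These 3 stretches held 2 wide peaks each. The stretch in MAD1L1 of 24362 bp consisted of 3 wide peaks that covered 97.0% of it. That at COL18A1 consisted of 2 that covered 96.4% of 20344 bp. Stretches of similar length thus differed in how much of them lay under peaks.

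At larger distances, 224 wide peaks, 55.2% (50.2 to 60.1%), had another within 100 kb, in 57 groups, and 182 stood alone. The share of narrower peaks with a wide peak within 100 kb was not taken. Whether wide peaks group more than other peaks in the same crowded places was therefore not tested. The largest group held 32 wide peaks among 288 peaks over 960 kb of chromosome 7, around INTS1 and through ELFN1 and MAD1L1 to SNX8, a sorting nexin gene. The next held 12 over 286 kb around TNRC18, FBXL18, ACTB and FSCN1, also on chromosome 7. At CBFA2T3 and ACSF3 on chromosome 16 there were 10 among 64 peaks in 215 kb, and at GSE1, which reaches across the 5 Mb limit, there were 8 among 92. Others with 8 lay at LFNG and TTYH3 and at ADAP1 and CHLSN on chromosome 7. Over 5 Mb from ends and off chromosome 7, large groups included 6 over 137 kb from SPEGNB to SLC4A3 on chromosome 2 and 5 over 181 kb from SEPTIN5 to TXNRD2 on chromosome 22. Without chromosome 7, 44.5% (38.8 to 50.2%) of wide peaks had another within 100 kb.

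The 74 wide peaks that touched no protein-coding gene lay a median of 19.3 kb from the nearest one. A long non-coding RNA gene was touched by 23 of them, a pseudogene by 12 and no gene of any kind by 39. The widest was 8884 bp beyond the 5′ end of CBFA2T3. Over 100 kb from any protein-coding gene lay 11, and 3 of these (4368, 3578 and 3309 bp) lay close together beside the centromere of chromosome 4, 223 to 270 kb from CWH43. Others of the 11 measured 4616 and 3842 bp on chromosome 2 at 120 and 537 kb from LOC124905938, and 4303 bp on chromosome 8 at 758 kb from LOC105375816. A further one of 4214 bp lay in the immunoglobulin kappa locus, with 1 other peak within 50 kb. Reads from near-identical copies cannot be placed with certainty in such sequence or in pseudogenes, and how they were handled is not given in the sources used here, so these positions and widths are uncertain.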

How the data were processed

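The LDB1 library and the IgG library were made from untreated NB4 cells with the Hyperactive Universal CUT&Tag kit of Vazyme, per the labels' protocols. Per the submitters' processing notes, Bowtie2 2.4.1 and MACS2 2.0.10 were used with the hg38 build; how the caller was run, at what threshold, and with what use of the IgG library, is not given in the sources used here. Per the file headers, the deposited table gave chromosome, start, end and length in bp of 53742 peaks from 1 library, with no height, score or depth. The 977 rows outside chromosomes 1 to 22 and X, 3 of them at least 3000 bp wide, were left out.

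Genes (19970 protein-coding, 59094 of all kinds) and promoters came from RefSeq tables of GRCh38.p14, whose primary chromosomes are those of hg38; exons were not used, and starts were listed for all chromosomes used but 8. Chromosome ends were taken from the standard hg38 chromosome lengths. A gene end was crossed when a peak held bases on both sides of it. Intervals came from scipy 1.17.1. Position functions were tested on simulated data. Named genes were the widest 30 and 20 peaks away from and near chromosome ends, genes with 3 or more wide peaks, list members with a wide peak, the largest groups, genes held whole or crossed in pairs, and the peaks next to the width limit. Members and gene lists were chosen with earlier results of these data known. Some genes that this rule names are not reported here.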

Additional observations from a re-analysis of the deposited data

How the results depend on the processing

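Width limits, gene sets and distances moved several shares outside the interval of the value reported. At 4000 bp or more, 50.3% of peaks lay within 5 Mb of a chromosome end, 48.4% had another such peak within 100 kb and 116 genes were touched; at 2000 bp or more the values were 31.6%, 65.2% and 831, and 70.3% of midpoints lay in a protein-coding gene. With genes of all biotypes, 39.9% crossed a gene end and 83.25% had the midpoint in a gene. With at least 500 bp on either side of the gene end, 19.95% crossed an end. Taken by whole peaks inside 1 gene instead of midpoints, the share in a protein-coding gene was 57.1%. Without peaks near chromosome ends, 31.2% crossed a gene end and 44.1% had another wide peak within 100 kb. The share near chromosome ends was 32.5% at 3 Mb, 52.5% at 10 Mb and 32.1% without chromosome 7. Another wide peak lay within 500 kb of 71.4%, and without chromosome 7 within 100 kb of 44.5%. The cause of these shifts was not tested beyond the change of limit itself. The runs without chromosome 7 were chosen after seeing the data. No paired analysis was possible because there was 1 library per antibody. Depth was unknown, so no limit on detection can be given.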

Other observations

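Wide peaks also lay on microRNA genes. Of 1558 microRNA hairpins on the chromosomes used, 10 (0.642%) were touched by a wide peak and 153 (9.82%) by a peak of any width. MIR4252 lay whole inside the 6509 bp peak of ESPN, MIR6855 inside the 5494 bp peak of USP20 and MIR7155 inside the 4638 bp peak at CCDC88B. MIR5189 was cut by the start of the 7590 bp peak in ZFPM1. MIR3190 and MIR3191, which overlap each other, shared a peak of 3034 bp on chromosome 19. The others were MIR6836 and MIR4656 on chromosome 7 and MIR4690 and MIR6753 on chromosome 11, in peaks of 3323 to 4046 bp.

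Outside chromosomes 1 to 22 and X, 3 peaks reached 3000 bp, 2 on an alternate contig of chromosome 5 and 1 on an alternate contig of chromosome 2, the widest at 5030 bp. Alternate contigs repeat parts of the primary chromosomes, so these were not compared with the rest.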
